A study of Drosophila melanogaster with 8 samples.

Results

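Aminoacyl-tRNA synthetases are the enzymes that join each amino acid to its tRNAs. The genes for them were taken by symbol from the table of every library, as the name of an amino acid followed by RS, with the suffix -m for the mitochondrial enzymes. This gave 35 of 17730 genes, of which 20 carry no suffix and are called cytosolic here and 15 carry the suffix. No -m row was found for GlnRS, GlyRS, HisRS, LysRS or ThrRS, so the label follows the symbol and not a known compartment. All 35 passed the filter on low counts and were tested.

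Polyadenylated RNA was sequenced from ML-DmD17-c3 (D17-c3), a Drosophila melanogaster line derived from imaginal discs, and from S2-DRSC, a stock of the embryonic S2 line with features of hemocytes, the blood cells of the fly. Each line gave 4 libraries from 4 separate culture flasks. Neither line carries a treatment in the labels, and each was grown in the medium recommended for it. Each is a single stock, so the tests measure the spread between flasks, and the line cannot be told apart from its stock and its culture conditions. Being bulk libraries, they cannot tell fewer cells that express a gene from less RNA per cell.

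A synthetase recognises its amino acid and its tRNA and spends ATP to couple them, and the charged tRNA then goes to the ribosome. Cytosol and mitochondria hold separate ribosomes and tRNAs, and both sets of synthetases are encoded in the nucleus. For many amino acids the fly has a gene for each compartment. In animals, several cytosolic synthetases sit in a multisynthetase complex, held together by the scaffold proteins AIMP1, AIMP2 and AIMP3.

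Total expected counts per library ran from 76822525 to 91074700 in D17-c3 and from 83612326 to 110163700 in S2-DRSC. The disc genes chosen as markers were mostly higher in D17-c3 (7 of 8, with ap lower), with summed levels, in TPM (corrected for transcript length and library size), of 338 to 431 TPM in D17-c3 and 71.2 to 84.7 TPM in S2-DRSC, though vg, nub and ap were at 0.627, 0.110 and 0.105 TPM in D17-c3. The plasmatocyte genes summed to 347 to 473 TPM in D17-c3 and 9078 to 11070 TPM in S2-DRSC, with 6 of 10 lower and 3 higher in D17-c3. Most of the S2-DRSC sum was Nplp2, at 8023 TPM there and 17.7 TPM in D17-c3. The 3 higher in D17-c3 were srp (138 TPM, against 94.4 TPM in S2-DRSC), ush (175 against 90.8 TPM) and Sr-CI (15.8 against 1.5 TPM). D17-c3 replicate 2 stood apart, with a chi-square of counts per degree of freedom of 382 or more against each other D17-c3 library and 124 or less among the others. Several results in which it stands out are given without it as well.

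Levels of different genes were compared by TPM. The cytosolic genes were well expressed, with mean levels from 32.2 TPM (MetRS) to 361 TPM (AspRS) in D17-c3 and from 46.8 TPM (alpha-PheRS) to 252 TPM (AspRS) in S2-DRSC. The mitochondrial genes lay lower, from 5.55 TPM (GluRS-m) to 70.2 TPM (AspRS-m) in D17-c3 and from 5.72 TPM (ValRS-m) to 54.0 TPM (AspRS-m) in S2-DRSC. Medians over the genes were 93.2 TPM for the cytosolic and 20.5 TPM for the mitochondrial genes in D17-c3, and 102 TPM and 23.1 TPM in S2-DRSC. AspRS-m was the exception in each line, with a level inside the cytosolic range.

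**Figure D1:**
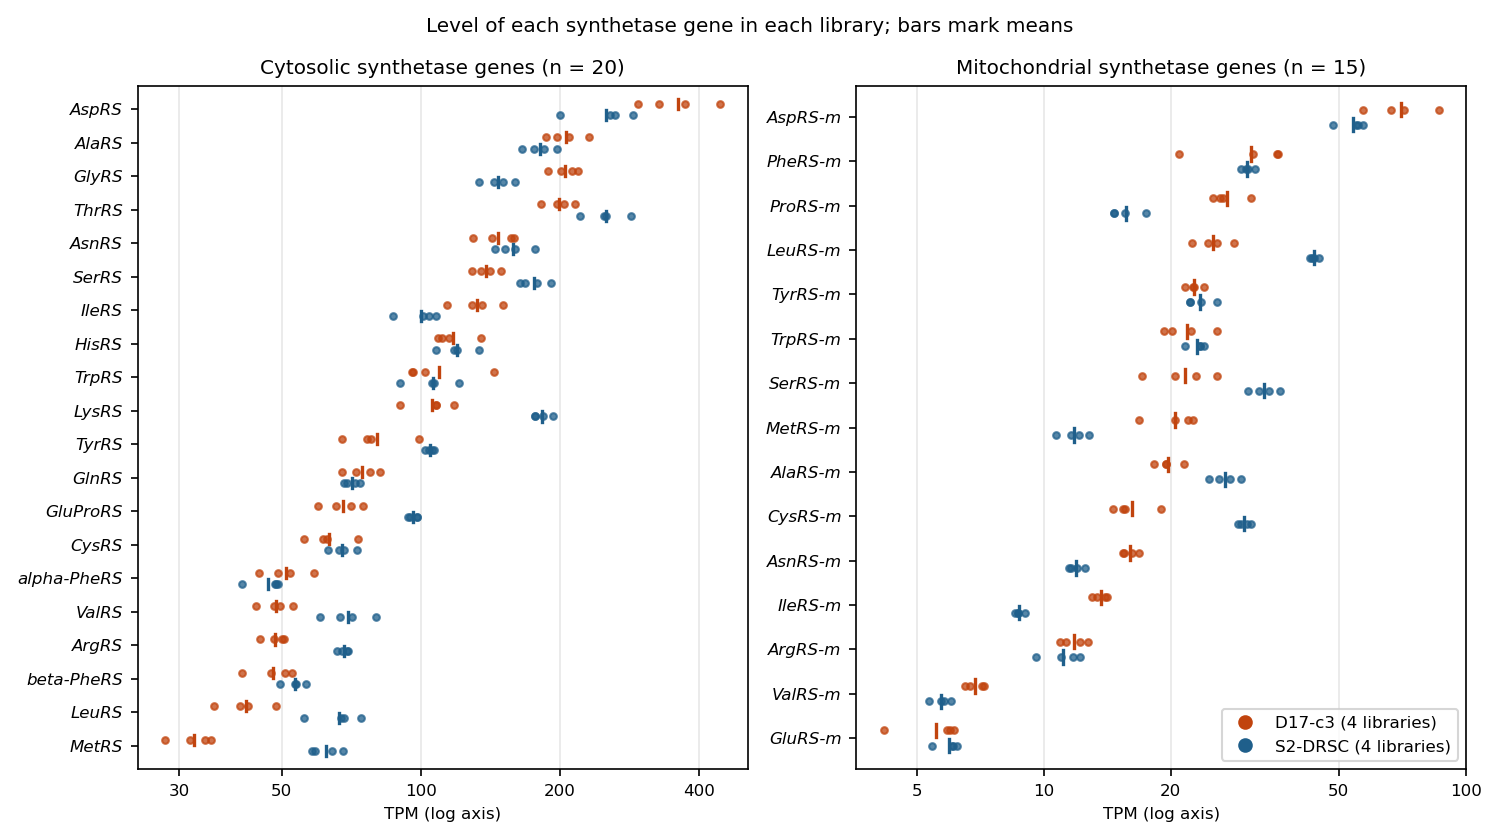
TPM (log axis) of the 20 cytosolic and 15 mitochondrial synthetase genes in each of the 4 D17-c3 and 4 S2-DRSC libraries, with bars at the means. In D17-c3 the means run from 361 TPM for AspRS to 32.2 TPM for MetRS among cytosolic genes, and AspRS-m is the highest mitochondrial gene in both lines.

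AspRS headed the order of levels in both lines. In D17-c3 it stood at 361 ± 64.7 TPM (SD, n = 4, as for all means here), clear of AlaRS at 206 ± 19.6 TPM, which overlapped GlyRS and through it ThrRS. In S2-DRSC AspRS at 252 ± 37.2 TPM overlapped ThrRS at 252 ± 26.0 TPM, and LysRS ranked 3 at 183 ± 7.56 TPM. LysRS, which charges lysine tRNAs, ranked 10 in D17-c3 at 106 ± 11.6 TPM. GlyRS, the glycine enzyme, ranked 3 in D17-c3 at 205 ± 13.4 TPM and 7 in S2-DRSC at 147 ± 11.2 TPM. Most neighbours in either order overlapped between libraries, so single places in it are not resolved.

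By TPM, which carries no scaling factor between the lines, the summed synthetase level did not separate them. Cytosolic genes together made 2084 to 2476 TPM in D17-c3 libraries and 2177 to 2592 TPM in S2-DRSC libraries. Mitochondrial genes together made 313 to 345 TPM in D17-c3 and 325 to 345 TPM in S2-DRSC. The mitochondrial sum was 14.5% ± 0.883 of the cytosolic sum in D17-c3 and 14.1% ± 0.750 in S2-DRSC. Single genes differed by TPM in both directions. Without overlap between the lines, 3 cytosolic genes were higher and 9 lower in D17-c3. Of the mitochondrial genes 5 were higher and 4 lower by this rule, and of all genes tested 43.8% and 25.1%. The tests below use scaled counts instead, with scaling factors of 1.036 to 1.083 in D17-c3 and 0.9251 to 0.9556 in S2-DRSC. Sums were not taken on that scale, where the cytosolic genes were mostly lower in D17-c3.

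Differences between the lines were tested on expected counts with edgeR's quasi-likelihood test and Benjamini-Hochberg adjustment over all 11606 genes tested, and a gene was called at an adjusted p under 0.05. For these, levels are counts relative to the scaled library size (CPM), and a fold change is the log2 of the D17-c3 to S2-DRSC ratio ± SE. Of the 20 cytosolic genes, 14 were lower in D17-c3, 1 was higher and 5 had no call. Among all genes tested, 36.1% were lower and 39.1% were higher in D17-c3, against 70% and 5% of the cytosolic genes. Of the 15 cytosolic genes with an -m partner 10 were lower and 0 higher. Of the 5 without one 4 were lower and 1 higher. Of the 15 mitochondrial genes, 6 were lower, 3 were higher and 6 had no call, shares of 40% and 20% that lie nearer to those of all genes.

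Most of the differences were modest. Only 4 of the 35 genes differed at least 2-fold, all of them lower in D17-c3: MetRS, LysRS, LeuRS-m and CysRS-m. Of all genes tested, 17.4% were called lower and 25.6% called higher at 2-fold or more. The median log2 fold change was -0.37 over the cytosolic and -0.20 over the mitochondrial genes, against 0.04 over all genes tested. Without D17-c3 replicate 2 the mitochondrial median was -0.02.

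The scaling of the libraries moved how many of the smaller differences were called. With library totals in place of scaling factors the median of all genes was 0.21, and with unscaled log2(TPM + 1) in limma it was 0.18. With library totals 3 cytosolic genes were higher and 11 lower (all genes 45.1% and 30%), and on TPM 3 were higher and 9 lower (all genes 45.5% and 26.9%). Of the calls among the 35 genes, 16.7% were higher in D17-c3 in the main test, against 34.8% with library totals and 40.9% on TPM. Of the calls among all genes, 52.0% were higher in the main test and 60% and 62.9% in these alternatives. Relative to the median of all genes, the cytosolic median was -0.42 in the main test, -0.42 with library totals and -0.31 on TPM. The 9 cytosolic genes from ThrRS to MetRS in the plot of fold changes kept their call and direction in every alternative run.

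**Figure D2:**
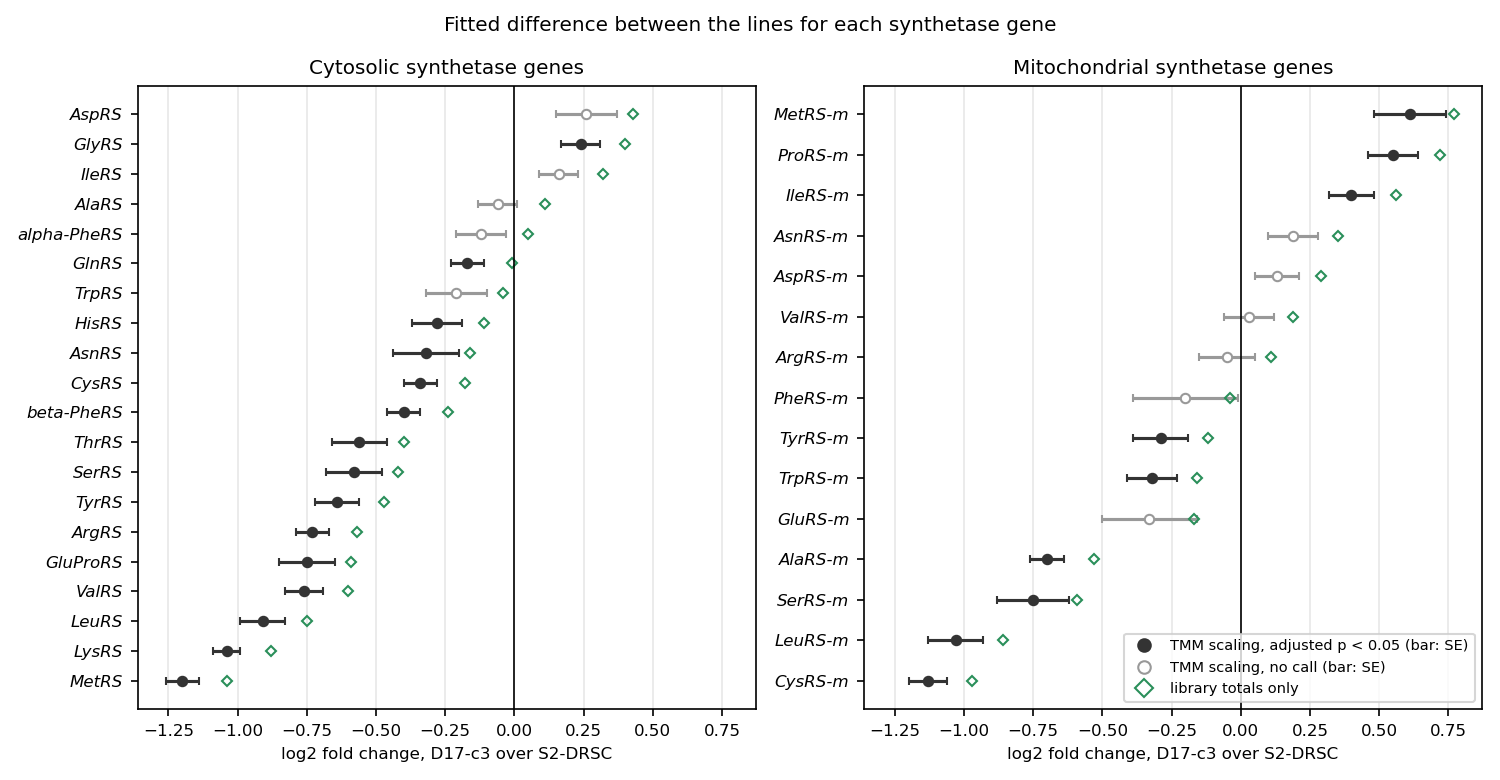
Fitted log2 fold change of D17-c3 over S2-DRSC for each gene (circles, bars: SE; filled where the adjusted p is under 0.05) and the same with library totals only (diamonds). Cytosolic genes run from 0.26 (AspRS) to -1.20 (MetRS) and mitochondrial genes from 0.61 (MetRS-m) to -1.13 (CysRS-m).

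MetRS, which charges both the initiator and the elongator methionine tRNA in the cytosol, differed most among the cytosolic genes (2R, 18846858 to 18850599, BDGP6). It had 71.6, 72.7, 72.7 and 75.2 CPM in D17-c3 replicates 1 to 4, against 169, 160, 178 and 165 CPM in S2-DRSC replicates 1 to 4. The lines were far apart and each was tight, and the log2 fold change was -1.20 ± 0.06 (adjusted p = 8.76e-08).

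LysRS (X, 9606363 to 9608884) followed. It had 136, 137, 131 and 134 CPM in D17-c3, against 272, 272, 284 and 279 CPM in S2-DRSC. Every D17-c3 library stood near the same level, and the log2 fold change was -1.04 ± 0.05 (adjusted p = 1.33e-07). LysRS has no -m gene among these rows, and in humans a single gene makes the enzyme for both compartments.

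LeuRS, the leucine enzyme, had 104, 114, 105 and 105 CPM in D17-c3, against 200, 210, 220 and 176 CPM in S2-DRSC (log2 -0.91 ± 0.08, adjusted p = 4.39e-06). ValRS, the valine enzyme, had 107, 108, 112 and 107 CPM in D17-c3, against 184, 180, 206 and 166 CPM in S2-DRSC (log2 -0.76 ± 0.07, adjusted p = 8.74e-06). In both genes the lines were separate and S2-DRSC replicate 4 was the lowest of its line. GluProRS, a single protein with the glutamate and the proline enzyme joined, had 258, 201, 268 and 266 CPM in D17-c3, against 419, 416, 416 and 425 CPM in S2-DRSC (log2 -0.75 ± 0.10, adjusted p = 5.98e-05). Its lowest value was that of D17-c3 replicate 2, and without that library the log2 fold change was -0.67.

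The other cytosolic genes that were lower in D17-c3 had smaller differences. ArgRS (log2 -0.73 ± 0.06), TyrRS (-0.64 ± 0.08), SerRS (-0.58 ± 0.10) and ThrRS (-0.56 ± 0.10) did not overlap between the lines by CPM or by TPM. CysRS (-0.34 ± 0.06), AsnRS (-0.32 ± 0.12), HisRS (-0.28 ± 0.09) and GlnRS (-0.17 ± 0.06) overlapped by TPM, and their calls ended on unscaled TPM, where the fold change of GlnRS was 0.07. AsnRS overlapped by CPM as well, with 235 CPM in D17-c3 replicate 3 and 228 CPM in S2-DRSC replicate 4. The calls of HisRS, AsnRS and GlnRS ended with library totals as well. Those of AsnRS and GlnRS ended on leaving out replicate 1 of D17-c3 (-0.32 and -0.17) or of S2-DRSC (-0.34 and -0.17), and that of AsnRS also without S2-DRSC replicate 3 (-0.29). Both ended as well when genes needed 1 CPM in 4 libraries (-0.27 for AsnRS and -0.11 for GlnRS). HisRS shares 255 exon bases with Bx on the same strand, and Bx was at 104 TPM in D17-c3 and 4.69 TPM in S2-DRSC, so reads there could be split between the genes.

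GlyRS was the cytosolic gene called higher in D17-c3. It had 350, 296, 348 and 334 CPM in D17-c3, against 283, 280, 298 and 265 CPM in S2-DRSC. D17-c3 replicate 2 lay just under the highest S2-DRSC library, and the log2 fold change was 0.24 ± 0.07 (adjusted p = 0.0159). The call ended with no filter and on leaving out replicate 1 or 4 of D17-c3 or replicate 1, 2 or 4 of S2-DRSC, with fold changes of 0.18 to 0.23 without these libraries. It held without D17-c3 replicate 2 (0.29) or 3 (0.21) and without S2-DRSC replicate 3 (0.25).

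The 5 cytosolic genes with no call were AspRS, IleRS, AlaRS, alpha-PheRS and TrpRS. AspRS was at 455 ± 48.4 CPM in D17-c3 and 379 ± 47.8 CPM in S2-DRSC (log2 0.26 ± 0.11, adjusted p = 0.0562). IleRS was at 344 ± 14.4 and 309 ± 24.5 CPM in the same order (0.16 ± 0.07, adjusted p = 0.0816). By TPM neither overlapped, with D17-c3 above, and both were called higher on unscaled TPM, with library totals, and when genes needed 1 CPM in 4 libraries. AlaRS was at 432 ± 17.9 CPM in D17-c3 and 450 ± 20.1 CPM in S2-DRSC, and TrpRS at 116 ± 17.4 and 134 ± 12.6 CPM. TrpRS was called lower with D17-c3 replicate 2 left out (-0.31), and likewise for S2-DRSC replicate 4 (-0.29). AspRS shares 63.9% of its exon bases with the antisense gene asRNA:CR45141, which was at 6.51 TPM in D17-c3 and 2.79 TPM in S2-DRSC, and whether counting used strand is not given.

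Phenylalanine is charged in the cytosol by an enzyme of alpha and beta subunits that work as a tetramer. Alpha-PheRS had 47.6, 57.7, 60.6 and 54.5 CPM in D17-c3, against 60.4, 53.3, 60.9 and 64.4 CPM in S2-DRSC, with the lines overlapping (log2 -0.12 ± 0.09, adjusted p = 0.266). Beta-PheRS had 59.4, 60.3, 59.3 and 62.0 CPM in D17-c3, against 82.6, 75.2, 78.1 and 82.7 CPM in S2-DRSC, with no overlap (log2 -0.40 ± 0.06, adjusted p = 0.000148). The beta call ended on unscaled TPM. The ratio of alpha to beta by TPM does not depend on scaling between libraries. Its log2 was 0.09 ± 0.15 in D17-c3 and -0.19 ± 0.07 in S2-DRSC, a difference of 0.28 with no overlap (two-sided exact permutation p = 0.0286, the smallest that 4 against 4 libraries can give). The transcripts of the subunits were thus at similar levels in each line.

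Among the mitochondrial genes MetRS-m stood highest in D17-c3 relative to S2-DRSC (3R, 14249043 to 14259991). Mitochondria use a single methionine tRNA for initiation and elongation, and this enzyme charges it. It had 27.2, 20.9, 32.3 and 28.4 CPM in D17-c3, against 18, 16.5, 16.8 and 19.8 CPM in S2-DRSC. The lines did not overlap, though D17-c3 replicate 2 came close to S2-DRSC replicate 4, and the log2 fold change was 0.61 ± 0.13 (adjusted p = 0.00194).

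ProRS-m, the proline enzyme, had 24.4, 26.6, 28.8 and 23.1 CPM in D17-c3, against 17.1, 16.7, 19.1 and 17.1 CPM in S2-DRSC (log2 0.55 ± 0.09, adjusted p = 0.000336). IleRS-m, the isoleucine enzyme, had 26.8, 23.5, 28.5 and 26.1 CPM in D17-c3, against 19.1, 20.1, 20 and 20.5 CPM in S2-DRSC (log2 0.40 ± 0.08, adjusted p = 0.00115). Both were separate between the lines, and with MetRS-m they kept their calls in every alternative run.

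CysRS-m, the cysteine enzyme (2R, 14159096 to 14161262), was the mitochondrial gene with the largest difference. It had 18.9, 21.0, 20.7 and 18.4 CPM in D17-c3, against 43.9, 42.5, 42.6 and 44.6 CPM in S2-DRSC (log2 -1.13 ± 0.07, adjusted p = 4.43e-07). It shares 14.3% of its exon bases with CG13016 on the opposite strand, which was at 28.6 TPM in D17-c3 and 34.2 TPM in S2-DRSC. LeuRS-m (3L, 4825853 to 4829038) had 51.2, 41.0, 56.2 and 54.9 CPM in D17-c3, against 105, 104, 101 and 105 CPM in S2-DRSC (log2 -1.03 ± 0.10, adjusted p = 7.88e-06). The S2-DRSC libraries were tight for both genes, while D17-c3 replicate 2 was the lowest for LeuRS-m (log2 -0.94 without it).

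SerRS-m, the serine enzyme, had 24.2, 17.2, 25.4 and 26.3 CPM in D17-c3, against 39.6, 39.1, 41.2 and 37.0 CPM in S2-DRSC (log2 -0.75 ± 0.13, adjusted p = 0.000415). AlaRS-m, the alanine enzyme, had 41.7, 42.2, 44.8 and 40.7 CPM in D17-c3, against 69.1, 63.9, 72.8 and 68.8 CPM in S2-DRSC (log2 -0.70 ± 0.06, adjusted p = 7.17e-06). The lines were separate for both. Without D17-c3 replicate 2 the log2 fold change of SerRS-m was -0.64. TrpRS-m (-0.32 ± 0.09) and TyrRS-m (-0.29 ± 0.10) were also called lower in D17-c3, and both calls ended with library totals and on unscaled TPM. That of TyrRS-m also ended without S2-DRSC replicate 4 (-0.25) and when genes needed 1 CPM in 4 libraries (-0.23). TyrRS-m overlapped between the lines by CPM and by TPM.

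The 6 mitochondrial genes with no call were AsnRS-m, AspRS-m, ValRS-m, ArgRS-m, PheRS-m and GluRS-m. AsnRS-m was at 14.8 ± 1.37 CPM in D17-c3 and 13.0 ± 0.224 CPM in S2-DRSC, and AspRS-m at 184 ± 17.5 and 168 ± 10 CPM. Both were called higher in D17-c3 with library totals and on unscaled TPM, and AsnRS-m also by DESeq2 and when genes needed 1 CPM in 4 libraries. ValRS-m stood at 14.5 ± 1.17 CPM in D17-c3 and 14.2 ± 0.546 CPM in S2-DRSC, and ArgRS-m at 17.2 ± 1.44 and 17.8 ± 1.76 CPM. PheRS-m was at 30 ± 8.78 CPM in D17-c3 and 34.4 ± 1.21 CPM in S2-DRSC, with 18.2 CPM in D17-c3 replicate 2 and 29.6 to 39.1 CPM in the other D17-c3 libraries. Its log2 fold change was -0.20 ± 0.19, or -0.02 without D17-c3 replicate 2. GluRS-m, which in animal mitochondria also loads glutamate onto the glutamine tRNA for later conversion, had the lowest counts, with 6.05 ± 1.36 CPM in D17-c3 and 7.61 ± 0.503 CPM in S2-DRSC. It shares 95 exon bases (5.59%) with Serinc on the opposite strand, which was at 113 TPM in D17-c3 and 130 TPM in S2-DRSC, so with the strand setting unknown its level is uncertain. An overlap with a gene on the opposite strand was found for 16 of the 35 genes. ValRS-m was called higher on log2(TPM + 1) alone (0.23, adjusted p = 0.0436 in limma). With a library left out, calls were gained for AsnRS-m without D17-c3 replicate 2 (0.24) and for GluRS-m without D17-c3 replicate 3 (-0.43).

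Ratios of a mitochondrial gene to its cytosolic partner were taken for 14 amino acids, with GluProRS standing as partner to both GluRS-m and ProRS-m. Phenylalanine, whose cytosolic enzyme has a gene for each subunit beside PheRS-m, was left out. A ratio of TPM within a library does not depend on scaling between libraries. In 6 of 14 pairs (42.9%) the ratio of mitochondrial to cytosolic transcript was higher in every D17-c3 library than in any S2-DRSC library, in 3 (21.4%) it was lower, and in 5 the lines overlapped. For single genes, TPM did not overlap at 43.8% of genes tested with D17-c3 higher and 25.1% with D17-c3 lower. The p-values below are two-sided exact permutation tests over libraries, and each separated pair has the smallest value possible, 0.0286, or 0.0444 after Benjamini-Hochberg adjustment over the 14 ratios.

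The methionine pair had the largest difference, and its members were called in opposite directions. The log2 ratio of MetRS-m to MetRS was -0.63, -1.06, -0.35 and -0.59 in D17-c3, against -2.41, -2.45, -2.55 and -2.21 in S2-DRSC. The ratio was thus 1.74 log2 units higher in D17-c3 (exact permutation p = 0.0286). By level, MetRS-m stood at 20.5 ± 2.59 TPM beside 32.2 ± 3.17 TPM of MetRS in D17-c3, and at 11.8 ± 0.885 TPM beside 62.4 ± 4.49 TPM in S2-DRSC.

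The proline pair was next. The log2 ratio of ProRS-m to GluProRS was -1.44, -0.96, -1.30 and -1.58 in D17-c3, against -2.65, -2.67, -2.48 and -2.69 in S2-DRSC, 1.31 higher in D17-c3. Smaller increases were those of valine (0.78), arginine (0.58), asparagine (0.53) and glutamate (0.39). By scaled counts the mitochondrial gene of the valine, arginine, asparagine and glutamate pairs had no call, and the cytosolic gene was lower in D17-c3. On log2(TPM + 1), nearer to the scale of the ratios, AsnRS-m was called higher (0.40) and AsnRS had no call (-0.11). ValRS-m was called higher there (0.23) and ValRS lower (-0.51). ArgRS-m (0.08) and GluRS-m (-0.10) had no call, with ArgRS (-0.48) and GluProRS (-0.50) called lower.

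The ratio was lower in D17-c3 for cysteine, alanine and serine. The log2 ratio of CysRS-m to CysRS was -2.0, -1.95, -1.94 and -2.01 in D17-c3, against -1.14, -1.21, -1.26 and -1.11 in S2-DRSC, a difference of -0.79 with tight groups. The difference was -0.64 for alanine and -0.30 for serine. The serine ratios overlapped when computed from expected counts without length correction (-0.18). For leucine, where both genes were lower in D17-c3, the log2 ratio was -0.73 ± 0.27 in D17-c3 and -0.60 ± 0.16 in S2-DRSC (exact permutation p = 0.571). The tyrosine, isoleucine, tryptophan and aspartate ratios overlapped too, and without D17-c3 replicate 2 those of tyrosine and isoleucine separated, for 8 pairs with a higher ratio. The isoleucine ratio also separated without S2-DRSC replicate 4 (0.30), and the aspartate ratio without S2-DRSC replicate 3 (-0.20).

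**Figure D3:**
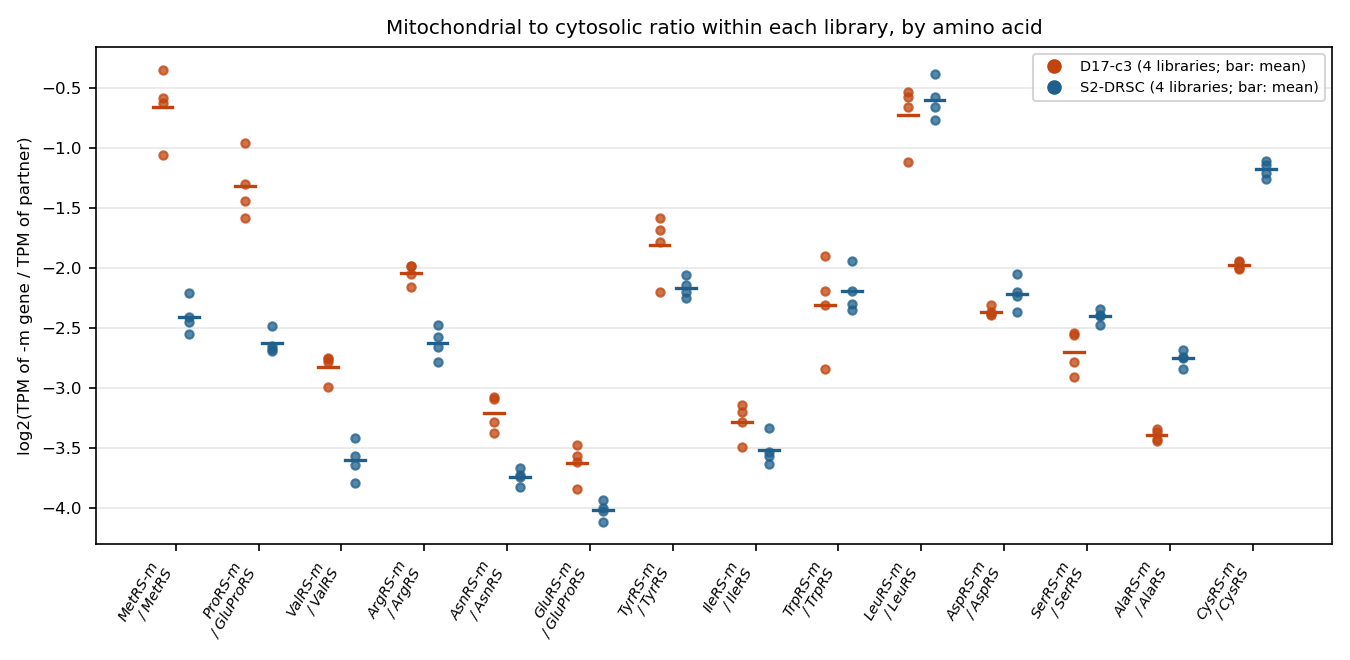
Log2 ratio of the TPM of each mitochondrial gene to that of its cytosolic partner in each library (points) with means (bars), ordered by the difference between lines. The methionine ratio lies 1.74 higher and the cysteine ratio 0.79 lower in D17-c3 than in S2-DRSC.

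Single D17-c3 libraries were shifted further from their line in the mitochondrial than in the cytosolic genes. In replicate 2, the median log2 CPM relative to the other 3 libraries of the line was -0.25 over the mitochondrial genes and 0.02 over the cytosolic genes. In replicate 3 these medians were 0.19 and 0.06, and in the other 6 libraries of both lines they lay between -0.08 and 0.11. The mean against which replicate 3 is set includes replicate 2, so these shifts are not independent. For SerRS-m, replicate 3 (25.4 CPM) lay between replicates 1 (24.2 CPM) and 4 (26.3 CPM), yet its deviation was 0.19. Medians without replicate 2 were not taken. Replicate 2 held the lowest D17-c3 CPM for 11 of 15 mitochondrial and 7 of 20 cytosolic genes, against 39.9% of all genes tested. By TPM it was the lowest for 6 of 15 and 4 of 20, so the shift depended on the scale. The same held for replicate 3. It was the highest D17-c3 library by CPM for 10 of 15 mitochondrial and 9 of 20 cytosolic genes, against 28.4% of all genes tested. By TPM, however, it was the lowest for 8 of 15 and 14 of 20. No share of all genes is given here for the counts by TPM.

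**Figure D4:**
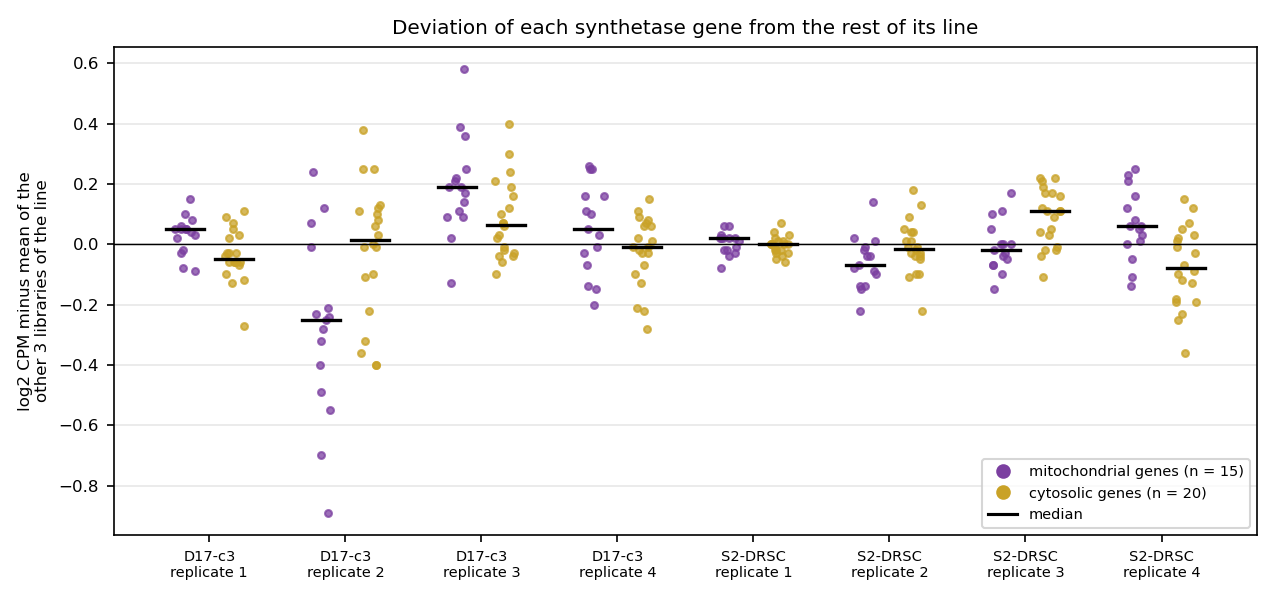
Log2 CPM of each synthetase gene minus its mean in the other 3 libraries of the line, for each library, with medians as bars. Mitochondrial genes have a median of -0.25 in D17-c3 replicate 2 and 0.19 in replicate 3, and the cytosolic medians all lie between -0.08 and 0.11.

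Grouped by other features of the enzymes, the counts were as follows. Class I and class II synthetases have unrelated catalytic folds. Of 18 class I genes 11 were lower and 2 higher in D17-c3 (median log2 -0.33), and of 16 class II genes 8 were lower and 2 higher (-0.24). GluProRS, with its joined enzymes, was placed in neither class. Of the 8 enzymes placed here in the multisynthetase complex, 6 were lower (GluProRS, LeuRS, GlnRS, MetRS, LysRS and ArgRS) and 0 higher, with a median of -0.74. The other 2, AspRS and IleRS, were called higher with library totals and on unscaled TPM. DESeq2 also called 0 of the 8 higher, and at an unadjusted p under 0.05 edgeR held 1 higher, AspRS.

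Of the 3 scaffold genes of the complex, 2 were higher and 1 lower in D17-c3. AIMP3 had 175, 172, 196 and 192 TPM in D17-c3, against 73.8, 67.9, 73.7 and 77.5 TPM in S2-DRSC (log2 1.09 ± 0.11, adjusted p = 1.52e-05). The lines were far apart. AIMP2 was at 140 ± 5.13 TPM in D17-c3 and 98.5 ± 4.13 TPM in S2-DRSC (0.27 ± 0.07), and AIMP1 at 54.4 ± 3.08 and 64.9 ± 4.98 TPM (-0.49 ± 0.11). Each of these calls held in every alternative run.

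Animal mitochondria charge their glutamine tRNA indirectly, through GluRS-m and the amidotransferase of GatA, GatB and GatC, and no GlnRS-m is among these rows. GatC stood at 36.6 ± 4.24 TPM in D17-c3 and 16 ± 1.0 TPM in S2-DRSC (log2 0.95 ± 0.09), and GatB at 25.3 ± 1.40 and 14.2 ± 0.437 TPM (0.59 ± 0.08). GatA was at 17.3 ± 1.53 TPM in D17-c3 and 17.6 ± 0.843 TPM in S2-DRSC (-0.27 ± 0.09), a call that ended with library totals and on unscaled TPM. Slimp, an insect protein related to seryl-tRNA synthetase that partners SerRS-m, was at 17.8 ± 0.806 TPM in D17-c3 and 12.4 ± 0.459 TPM in S2-DRSC (0.28 ± 0.08). Slimp and SerRS-m thus differed in opposite directions.

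Genes that use or supply charged tRNAs were mixed. Of 7 cytosolic elongation factor genes 4 were lower in D17-c3 and 0 higher, led by eEF1gamma at 1294 ± 171 TPM in D17-c3 and 2665 ± 39.3 TPM in S2-DRSC (log2 -1.29 ± 0.12). DESeq2 called 1 of the 7 higher, eEF1alpha2, which edgeR held at an unadjusted p under 0.05 and called when either D17-c3 replicate 2 or replicate 4 of S2-DRSC was left out. Its level was low, at 1.4 ± 0.16 TPM in D17-c3 and 0.873 ± 0.149 TPM in S2-DRSC, beside 10713 and 9190 TPM for eEF1alpha1. Of 8 mitochondrial translation factors 2 were higher and 3 lower. Among these, mIF3 was at 48.9, 106, 33.0 and 35.3 TPM in D17-c3, against 14.9 to 16.8 TPM in S2-DRSC, with replicate 2 far above the others (log2 1.53 ± 0.30, or 1.09 without it), and mIF2 was at 7.63 ± 0.630 and 16.3 ± 0.672 TPM (log2 -1.34 ± 0.07).

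Uncharged tRNA activates the kinase Gcn2, which raises translation of the transcription factor ATF4, called crc in the fly, and synthetase genes are among ATF4 targets in mammals. Of 9 genes listed here under Gcn2 and ATF4, 5 were lower in D17-c3 and 1, PEK, a kinase other than Gcn2, was higher. The call of PEK (83.4 ± 27.5 TPM in D17-c3, 49.1 ± 5.52 TPM in S2-DRSC) ended without S2-DRSC replicate 4 (log2 0.39), and its log2 fold change of 0.48 was 0.30 without D17-c3 replicate 2. AsnS, asparagine synthetase, was among the lower genes, with 29.8, 82.8, 27.5 and 27.8 TPM in D17-c3, against 60.3, 57.5, 64.6 and 53.9 TPM in S2-DRSC (log2 -0.78 ± 0.30, adjusted p = 0.0401). D17-c3 replicate 2 lay above all S2-DRSC libraries, and without it the log2 fold change was -1.26. The AsnS call ended on leaving out any other library (-0.83 to -0.65), with library totals, with the 1 CPM minimum and on unscaled TPM. The same replicate was highest for trbl, at 71.6 TPM against 32.3 to 39.9 TPM in the other D17-c3 libraries, with no call. Thor, the fly 4E-BP and an ATF4 target, was at 131 ± 44.0 TPM in D17-c3 and 242 ± 68.6 TPM in S2-DRSC (log2 -1.15 ± 0.23). Gcn2 was at 24.9 ± 3.39 and 41.0 ± 5.03 TPM in the same order (-0.95 ± 0.09), and crc at 1229 ± 139 and 1078 ± 95.9 TPM with no call (adjusted p = 0.758).

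RNA polymerase III makes the tRNAs themselves. Of 13 genes for it and its factors 7 were lower and 1 higher in D17-c3, with 2 higher without D17-c3 replicate 2. The largest difference was that of Maf1, a repressor of the polymerase, with 67.4, 68.6, 60.1 and 70.5 TPM in D17-c3, against 204, 263, 237 and 190 TPM in S2-DRSC (log2 -1.77 ± 0.10). The counts of all these lists share the background of 36.1% lower and 39.1% higher genes.

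The synthetase genes are spread over the genome, with 6 on 2L, 8 on 2R, 10 on 3L, 7 on 3R and 4 on X. The closest are GluRS-m (3L, 16415292 to 16417177) and TyrRS (3L, 16417349 to 16419302), which lie on the same strand with 171 bases between them, at log2 fold changes of -0.33 ± 0.17 (adjusted p = 0.104) and -0.64 ± 0.08. The median log2 fold change of the 10 tested genes on each side, other synthetase genes left out, ranged from -1.46 around IleRS to 0.97 around GlyRS. It had the sign of the synthetase gene in 18 of 35 cases. Around LysRS this median was 0.08, around MetRS -0.48 and around MetRS-m -0.29, against -1.20 for MetRS itself and 0.61 for MetRS-m.

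The length that RSEM gives a gene is the mean of its transcripts weighted by their abundance. Of the 35 genes, 20 have 2 or more annotated transcripts, and in 2 genes (5.71%) the length differed by at least 5% without overlap between the lines, as it did in 5.73% of all genes tested. In SerRS-m the length averaged 1698 bases in D17-c3 and 1583 bases in S2-DRSC, and in ArgRS-m 2245 and 2097 bases. These genes share 13.9% and 11.8% of their exon bases with Nagk and mRpS9 on the opposite strand. Nagk was at 4.12 TPM in D17-c3 and 8.62 TPM in S2-DRSC, and mRpS9 at 79.5 and 67.0 TPM. With the strand setting unknown, the lengths and levels of both synthetase genes are uncertain, and with them the serine and arginine ratios.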

How the data were processed

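Per the labels' protocols, polyA RNA from 4 flasks of each line went into stranded Illumina libraries. Tools named without a role, per the submitters' processing notes, are RSEM, STAR 2.7.3a, Trim Galore 0.6.4, featureCounts, Subread 2.0.0 and DESeq2 1.30.1, with the builds dm6 and BDGP6. Those notes and the labels leave the strand setting unstated. The authors deposited, for each library, RSEM expected counts per gene, TPM values (scaled to transcript length and library size) and FPKM values. The deposited FPKM values were not used.

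Expected counts were rounded and tested in edgeR 4.0.16 (R 4.3.3) with TMM factors, filterByExpr, the quasi-likelihood test on the line over all 8 libraries, and Benjamini-Hochberg adjustment, with a threshold of 0.05. RSEM estimates how reads that fit several genes are shared, so values of similar or overlapping genes can trade reads. Alternatives were other scaling, other filters, DESeq2 1.42.0, limma 3.58.1 on log2(TPM + 1) and log2(TPM + 0.1), a replicate block, and leaving out each library. Ratios within a library were compared by exact permutation in scipy 1.17.1. The edgeR script was tested on simulated data, with changes placed at random among all genes tested. It called 25.4% of 1.414-fold changes, 73.1% of 2-fold changes and 0.0614% of unchanged genes. Only 67 of 11606 genes were given a change of each of these sizes, whereas 75.2% of genes were called in the data. Adjustment over all genes is stricter where few change, so these shares are not the rates for the synthetase genes. A gene with no call may still differ by a small amount. Positions and overlaps come from Ensembl release 115 (BDGP6), in which 17633 of 17730 gene IDs were found. Of 90 list entries 4 (HisRS-m, ThrRS-m, mEFG2 and Psat) were not matched. Promoter and protein sequences were not analysed here.

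The genes and the lists were chosen with earlier results of these data known. Values per library are given for up to 4 called genes per direction with the largest change in each group, for the Phe subunits and for GluProRS, and means for genes with no call. In each list the called gene with the largest change per direction is named, apart from 1 that is not reported here, and further list genes were chosen after their values were seen.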

Additional observations from a re-analysis of the deposited data

Results flagged for a closer look

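In 4 of 100 groups of 4 libraries examined for the synthetase genes (4%), a single library stood apart from the other 3 by Dixon's criterion, which chance alone passes in about 1 group in 20. TrpRS was at 144 TPM in D17-c3 replicate 2 and at 95.8 to 102 TPM in the other D17-c3 libraries. GluRS-m was at 4.18 TPM in D17-c3 replicate 2 and at 5.89 to 6.14 TPM in the others. The log2 ratio of ValRS-m to ValRS was -2.99 in D17-c3 replicate 2 and -2.78 to -2.75 in the others. Alpha-PheRS was at 41.1 TPM in S2-DRSC replicate 2 and at 48.4 to 49.1 TPM in the other S2-DRSC libraries. Of the 4, 3 were in D17-c3 replicate 2.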

How the results depend on the processing

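Across 17 alternatives and 35 genes, 520 values of single genes kept direction and side of the threshold, 33 lost the call, 22 gained one and 20 changed sign. Cytosolic genes higher in D17-c3 numbered 3 with library totals, when genes needed 1 CPM in 4 libraries (the 1 CPM filter), and on either TPM scale, 0 with no filter and 0 to 1 with a library left out. Those lower numbered 9 on either TPM scale and 12 to 15 with a library left out. With the 1 CPM filter 12 cytosolic and 5 mitochondrial genes were lower. Mitochondrial genes higher numbered 4 by DESeq2 and with the 1 CPM filter, 5 with library totals, 6 on log2(TPM + 1) and 5 on log2(TPM + 0.1). The cytosolic median was -0.21 with library totals, -0.42 with no filter, -0.32 with the 1 CPM filter, -0.13 on either TPM scale and -0.42 to -0.38 with a library left out. The 8 multisynthetase complex enzymes had 2 higher with library totals, the 1 CPM filter and either TPM scale. Class I genes had 4 higher on log2(TPM + 1) and 7 lower on either TPM scale. Class II genes had 5 higher with library totals and either TPM scale, 4 with the 1 CPM filter, 1 with no filter, 1 to 3 with a library left out, and 5 lower on either TPM scale.

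Slimp and the Gat genes had 0 lower with library totals and either TPM scale. Mitochondrial factors had 4 higher with library totals and 5 on either TPM scale. Elongation factors had 1 higher with library totals, the 1 CPM filter, DESeq2, each of the 3 limma runs, and 0 to 1 with a library left out. The Gcn2 and ATF4 genes had 0 to 1 higher with a library left out. The polymerase III genes had 4 higher with library totals and log2(TPM + 0.1), 3 on log2(TPM + 1), 2 with the 1 CPM filter and 1 to 2 with a library left out, and 4 lower on either TPM scale.

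The sign changed for AlaRS (0.11 with library totals, 0.18 on either TPM scale), alpha-PheRS (0.05, then 0.12 and 0.13), ArgRS-m (0.11, then 0.08 and 0.09, and 0.00 with the 1 CPM filter), GlnRS (0.07 on either TPM scale), TrpRS (0.03 likewise) and ValRS-m (-0.02 with no filter). With a library left out ArgRS-m ranged from -0.14 to 0.00 and ValRS-m from -0.03 to 0.08. The difference in log2 ratio ranged from -0.19 to 0.01 for LeuRS-m to LeuRS and from -0.25 to 0.06 for TrpRS-m to TrpRS, each highest without D17-c3 replicate 2. The cause was not tested.

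Replicate numbers did not pair the libraries: deviations of same-numbered libraries correlated at 0.011, 0.115, -0.039 and 0.052, and not every library correlated best with its own number. With the number as a replicate block, 2 cytosolic genes were higher, GlyRS and AspRS, of which 1, AspRS, is a complex enzyme, and the call of GlnRS ended. Depth did not limit the synthetase genes, whose lowest count was 385. The 4 flasks per line limit the precision.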
